A study of Homo sapiens with 3 samples.

Results

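The cells described here are the established human line PLC-PRF-5, given in the sample labels as a liver hepatoma, kept for 24 h with the solvent DMSO alone. They were the untreated arm of a chip experiment that also held 1 array of cells given sorafenib, a kinase inhibitor used against liver cancer, and 1 array of cells given the sorafenib probe, the same drug carrying an added alkyne and a photoaffinity group. Both compounds were given for 24 h, at 10 μM according to the sample labels and at 50 μM according to the protocol field, and the 3 cultures shared the line, the time and the RNA preparation. A gene was counted as above background with DMSO if at least 1 of its array probes had a detection p-value under 0.01, that is, if its signal exceeded nearly all negative control probes of that array, and it took the background-subtracted intensity of its brightest array probe. By this rule 9448 of 20046 measured genes (47.1%) were above background with DMSO. The signals that chose these genes are also the signals described, so they are given as a description with no test.

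Each group was a single array, so no value below has a replicate error. An array probe's intensity depends on its own sequence as well as on the amount of transcript. The order of signals is therefore not an order of transcript numbers, and differences between the conditions were taken only within a gene. In a culture measured in bulk, fewer cells of a type and less RNA per cell cannot be told apart.

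Hepatocytes are the main epithelial cells of the liver. They secrete most plasma proteins, among them albumin, transferrin, apolipoproteins and clotting factors, make bile acids and urea, and detoxify drugs, under the control of a small set of liver-enriched transcription factors. Hepatoma lines keep these functions to very different degrees. Lines that have lost them often still carry the keratins of simple epithelia, and tumour cells of many origins have high levels of ribosomal, glycolytic and redox enzymes.

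The array held 47323 probes, of which 30113 were assigned to 1 gene. Of all probes, 32.7% were above background with sorafenib, 32.8% with the sorafenib probe and 32.3% with DMSO. The mean intensity was 159 with sorafenib, 164 with the sorafenib probe and 183 with DMSO. As genes, 9557 (47.7%) were above background with sorafenib, 9570 (47.7%) with the sorafenib probe and 9448 with DMSO, and 8779 were so on all 3 arrays.

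Signals of the genes above background with DMSO had a lowest value of 20.8, a median of 163 and a highest value of 13216, whereas the median over all measured genes was 16.8. The 100 brightest genes held 18.3% of the summed signal of these genes and the 1000 brightest held 60.9%. Protein-coding genes made up 9072 of the 9448, with 109 long noncoding RNA genes out of 798 measured, 70 small nucleolar RNA genes and 150 pseudogenes. SNHG5 and ZFAS1, long noncoding RNAs that host small nucleolar RNAs and were chosen after their values were seen, had DMSO signals of 4766 and 1859.

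**Figure D1:**
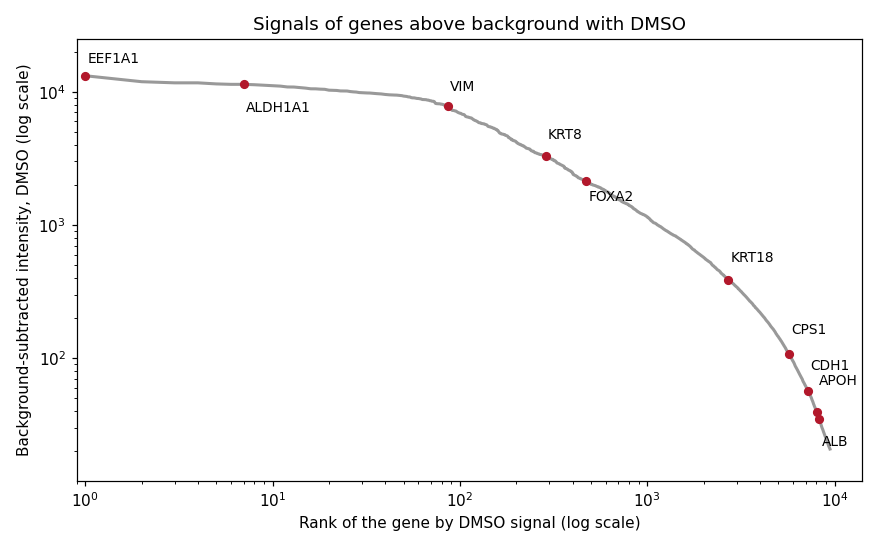
Background-subtracted intensity with DMSO (y axis, log scale) against the rank of the gene (x axis, log scale) for the 9448 genes above background, with 10 genes marked by points. EEF1A1 leads at 13216, the epithelial keratin gene KRT8 lies at rank 287, and the hepatocyte genes CPS1 and ALB lie at ranks 5705 and 8260.

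Many of the brightest named genes belonged to protein synthesis. Of the 100 brightest probes of the array 54 had no gene symbol and are not part of this order. EEF1A1, which brings aminoacyl-tRNA to the ribosome, gave 11165 with sorafenib, 11240 with the sorafenib probe and 13216 with DMSO, and all 4 of its array probes were above background. Of the 100 brightest genes 32 coded for cytosolic ribosomal proteins, such as RPL41, RPS12, RPLP2, RPL18, RPS29, RPL6 and RPS19, with DMSO signals between 9998 and 11476, although the other probe of RPL41 gave 78.7. Of the ribosomal protein genes measured, 43 of 44 of the large subunit (97.7%, median signal 6500) and 27 of 27 of the small subunit (100%, median 6911) were above background, against 47.1% of all measured genes. The exception was RPL10, which every cell needs and whose probes gave 4.52 with sorafenib, −5.03 with the sorafenib probe and −1.29 with DMSO. A gene that is not above background by its array probes is thus not shown to be silent. Among translation factors 24 of 25 were above background, led after EEF1A1 by TPT1, a translationally controlled tumour protein, at 10295 and the helicase gene EIF4A1 at 8575.

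Cytoskeletal transcripts followed closely. All 27 measured genes of this list were above background, against 47.1% of all measured genes, with a median signal of 2946. TMSB4X and TMSB10, the thymosins that hold actin monomers, had DMSO signals of 10870 and 9391, although the other probe of TMSB4X gave 113. PFN1, which loads actin for polymerisation, had 10479, and the actins ACTG1 and ACTB had 10264 and 9597. The tubulins TUBA1B and TUBA1A had 9647 and 9366, although members of this family and the pseudogene TUBA3FP at 9965 share sequence that array probes may not separate. ANXA2, a membrane-binding annexin, had 11687, and UBB, a ubiquitin gene, had 10885. All 29 proteasome genes were above background, headed by the core subunit genes PSMB6 at 4829 and PSMB1 at 3987.

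Beside this housekeeping machinery, the top of the profile held a run of enzymes of aldehyde and redox metabolism. TXN, the cytosolic thioredoxin, was the second brightest gene, with 10439 with sorafenib, 10963 with the sorafenib probe and 11921 with DMSO. ALDH1A1, which oxidises retinal and other aldehydes, gave 8533 with sorafenib, 9214 with the sorafenib probe and 11387 with DMSO. Within the 9448 genes above background with DMSO it lay at rank 36 with sorafenib, 28 with the sorafenib probe and 7 with DMSO. AKR1B10, an aldo-keto reductase that is often used as a marker of hepatocellular carcinoma, gave 8265, 10012 and 10544 on the same arrays in the same order. Ranked in this way, these genes stayed among the 100 brightest on every array, and the DMSO value was the highest of the 3 for each. These signals are not normalized. On normalized values the log2 differences from DMSO were −0.30 and −0.24 for ALDH1A1, −0.15 and −0.09 for TXN, and −0.20 and 0.03 for AKR1B10 with sorafenib and the sorafenib probe in this order, so that of AKR1B10 turned with the sorafenib probe.

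Further members of both families were bright as well. AKR1C2, AKR1C4 and AKR1C3, which act on steroids, had DMSO signals of 11045, 10450 and 9558. They are related paralogs whose array probe sequences were not compared, so the signal was not assigned to a single member. The next array probe gave 73.9 for AKR1C2, of whose 6 probes 3 were above background, and −3.84 for AKR1C4. Of the alcohol, aldehyde and aldo-keto list 16 of 22 genes were above background (72.7%, median 284), among them the dioxin-responsive aldehyde dehydrogenase ALDH3A1 at 6315, while the liver alcohol dehydrogenases ADH1A and ADH4 were not (−7.41 and −0.26 with DMSO).

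All 22 measured antioxidant genes were above background on every array, with a median DMSO signal of 1576. With DMSO 47.1% of all measured genes were above background. PRDX1, a peroxidase that thioredoxin regenerates, had 9152 with sorafenib, 8932 with the sorafenib probe and 10536 with DMSO. NQO1, a quinone reductase, had 5578, 5904 and 6955, with 190 with DMSO by its other probe, and SOD1, the cytosolic superoxide dismutase, had 4746, 4719 and 4682. TXNRD1, which reduces thioredoxin, and SRXN1, which repairs peroxiredoxins, had DMSO signals of 2670 and 2647, while GPX1, the cytosolic glutathione peroxidase, had 1420. FTL, the light chain of the iron store ferritin, had 11635 with sorafenib, 10694 with the sorafenib probe and 11314 with DMSO, and 11 of 15 genes of iron and metal storage were above background. NFE2L2, the transcription factor that drives many of these antioxidant genes, and KEAP1, which marks it for degradation, were chosen after the values were seen. NFE2L2 had 414 with sorafenib, 360 with the sorafenib probe and 524 with DMSO, and KEAP1 had 323, 306 and 367.

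The antioxidant response element, to which NFE2L2 binds, was searched as TGACNNNGC on both strands of the promoter window, taken from RefSeq on GRCh38.p14 as 250 bases before to 50 after the first listed start of a gene. This motif and the others below were chosen with earlier results known. It stood in 3 of 15 antioxidant promoters (20%), in 3 of 8 promoters of the pentose phosphate and NADPH list (37.5%), and in 13.6% of all 27305 promoters. Its share was 14.5% in the promoters of all measured genes, 16.9% in those of the 100 brightest and 22.2% in those of the proliferation list. The antioxidant share was thus not higher than that of every other group of genes. A match is a description of letters and not of a bound site. Only the first listed start of a gene was searched, which need not be the start used in these cells. The windows of 3 antioxidant genes with a match are shown because they belong to this group of bright genes, and that of TXN because it is the brightest of the group and holds the TATA box letters TATAAA instead, which 12% of all promoters hold. Capitals mark the matches. TXN (chr9:110256458-110256757, minus strand) has overlapping TATAAA matches on either strand that begin 32 and 30 bases before the start. TXNRD1 (chr12:104215529-104215828, plus strand) has TGACNNNGC 99 bases before the start on its own strand and 8 bases before it on the other. GCLM (chr1:93909381-93909680, minus strand), which codes for the modifier subunit of glutathione synthesis, and GPX2 (chr14:64942696-64942995, minus strand), a glutathione peroxidase of epithelia, have it on the other strand at 34 and 122 bases before the start. These last 2 genes, chosen for their match, had DMSO signals of 1319 and 1733.
TXN: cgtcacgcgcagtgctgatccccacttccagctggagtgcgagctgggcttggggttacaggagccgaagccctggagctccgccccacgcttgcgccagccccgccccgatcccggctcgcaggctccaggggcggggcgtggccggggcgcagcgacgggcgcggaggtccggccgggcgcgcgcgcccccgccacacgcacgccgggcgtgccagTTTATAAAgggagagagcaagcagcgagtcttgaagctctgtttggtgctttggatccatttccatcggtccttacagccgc
TXNRD1: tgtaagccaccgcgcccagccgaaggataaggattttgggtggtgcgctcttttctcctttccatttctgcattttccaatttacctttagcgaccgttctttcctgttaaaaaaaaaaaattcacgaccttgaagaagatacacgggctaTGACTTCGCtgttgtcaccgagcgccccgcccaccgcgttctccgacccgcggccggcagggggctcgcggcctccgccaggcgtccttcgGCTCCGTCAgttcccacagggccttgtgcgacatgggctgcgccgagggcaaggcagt
GCLM: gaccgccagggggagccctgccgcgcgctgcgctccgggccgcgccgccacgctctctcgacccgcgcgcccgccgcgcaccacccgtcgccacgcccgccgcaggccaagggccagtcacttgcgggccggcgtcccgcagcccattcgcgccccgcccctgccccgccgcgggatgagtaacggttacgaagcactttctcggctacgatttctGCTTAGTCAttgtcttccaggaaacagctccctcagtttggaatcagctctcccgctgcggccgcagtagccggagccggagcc
GPX2: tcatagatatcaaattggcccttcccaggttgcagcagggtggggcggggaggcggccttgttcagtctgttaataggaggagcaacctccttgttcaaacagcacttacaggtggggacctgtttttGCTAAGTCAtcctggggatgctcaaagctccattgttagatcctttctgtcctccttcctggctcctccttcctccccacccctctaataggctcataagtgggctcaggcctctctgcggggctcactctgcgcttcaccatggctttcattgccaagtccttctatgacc

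Array probes of 1 gene did not always give the same answer. Of the 100 brightest genes 68 had more than 1 array probe. For 30 of these the next brightest probe gave less than 0.1 of the signal of the first, and for 15 it was not above background. Over all genes above background with more than 1 probe, 1656 of 3845 (43.1%) had a next probe that was not. ORC6, an origin recognition factor, had 11215 by its first and 317 by its next probe, PDCD7 had 10053 and 253, and LAIR1, an immune receptor, had 9880 and 14.8. Chosen after their values were seen, the chemokine receptor gene CCR6 had 9165 and 17.2, the leukocyte receptor gene LILRB3 7254 and 5.88, and ITIH5 8679 and 8.48. For such genes the 2 probes do not give the same answer, and a high signal from only 1 of them does not show that the named gene is abundant. EEF1A1 had 13216, 12627, 11671 and 357 by its 4 probes, so its dimmest stood apart from the other 3. Genes whose 2 probes gave signals of similar size included FTL (11314 and 11048), PRDX1 (10536 and 9405), TXN (11921 and 8591) and the pseudogene RPL13AP5 (11689 and 10725), which shares its sequence with a ribosomal protein gene. Other genes named in this text also had a next probe under 0.1 of the first, among them NQO1 (190), MCM7 (67.0) and CD24 (133). Further cases were DKK1 (133), DSG2 (65.3), MBP (43.4), KRT18 (33.4) and RPL36 (21.1). The next probe was not above background for genes such as TALDO1 (−0.06), PFKP (−3.39), GPX1 (1.10), ZFAS1 (3.48), GOLM1 (16.1), CD14 (7.43) and TAGLN (7.19). The same held for PLEC (19.3), SNAP25 (5.77), HLA-DRA (13.3), DSC3 (17.7), FGA (17.2) and EGFL7 (20.1). Pseudogenes made up 8 of the 100 brightest, RPSAP9 and RPL13AP3 among them, and ZNF674, a zinc finger gene at 10146, had a single probe.

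**Figure D2:**
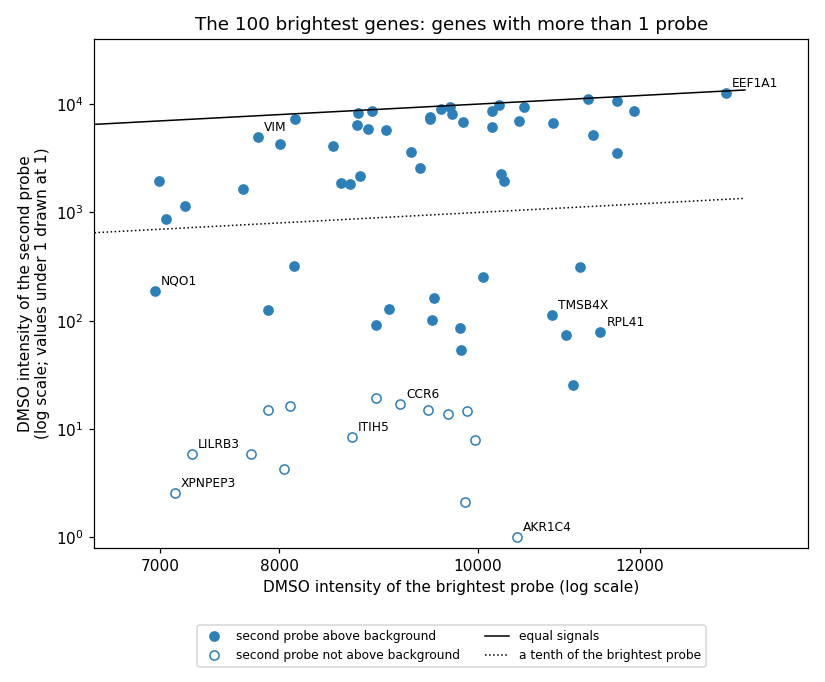
DMSO intensity of the next brightest array probe (y axis, log scale, values under 1 drawn at 1) against that of the brightest probe (x axis, log scale) for the 68 genes among the 100 brightest that had more than 1 probe. Open points are the 15 genes whose next probe was not above background, such as CCR6 at 9165 and 17.2, and 30 points lie below the dotted line at 0.1 of the brightest probe.

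Genes of the proteins that define hepatocytes were looked up, and most of these genes were not above background. Of 42 measured genes of hepatocyte secreted proteins 7 were (16.7%, median signal 3.81), against 47.1% of all measured genes, and 33 were above background on none of the 3 arrays. ALB, the albumin gene, gave 22.1 with sorafenib, 32.5 with the sorafenib probe and 35.1 with DMSO by its brighter probe, just above the limit, and 2.91 with DMSO by the other. TTR, which carries thyroid hormone, gave 0.42, −0.90 and 10.5, APOA1, the main protein of high-density lipoprotein, gave 13.03, −7.42 and 8.28, and SERPINA1, the alpha-1 antitrypsin gene, gave 1.84, −1.05 and 11.9 on these arrays. None of these values was above background, nor was that of TF, the transferrin gene, on any array, which was chosen after its values were seen. APOC1, which is also made outside the liver, was the brightest of the list at 357 with sorafenib, 368 with the sorafenib probe and 554 with DMSO. C5, APOH, CFB, ITIH1 and the fibrinogen chain gene FGA completed it, with DMSO signals of 108, 39.4, 31.2, 23.6 and 20.96. APOH and ITIH1 were above background with DMSO only, each at its single probe.

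Hepatocyte enzymes and transporters gave the same picture, with 2 of 24 genes above background (8.33%, median signal 2.60). CPS1, the first enzyme of the urea cycle, had 78.9 with sorafenib, 94.9 with the sorafenib probe and 108 with DMSO, and the carboxylesterase gene CES1 had 42.1, 61.7 and 43.2 by 1 of its 3 probes. CYP3A4 and G6PC1, which serve drug oxidation and glucose release, had −7.40 and 2.04 with DMSO. Like TAT, an enzyme of tyrosine breakdown, they were not above background on any array. Most defining hepatocyte markers were thus not above background in these cells, which are labelled as a liver hepatoma, while ALB and CPS1 were above background. No reference profile of PLC-PRF-5 was compared, and the identity of the line was not tested.

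Of liver-enriched transcription factors 9 of 17 were above background (52.9%, median 29.9), a share near the 47.1% of all genes. FOXA2, a forkhead factor of endoderm and liver, gave 1654 with sorafenib, 1625 with the sorafenib probe and 2154 with DMSO by 1 of its 3 probes, while the next gave 1.49. CEBPB, a factor of acute and stress responses, had 2133, 1955 and 1482, and RXRA, a partner of nuclear receptors, had 508, 576 and 539. NR5A2, HHEX, FOXA1 and CEBPA had DMSO signals of 329, 116, 92.7 and 80.3.

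Oncofetal and hepatocellular carcinoma markers were above background in 10 of 18 genes (55.6%, median 31.9), also near the share of all genes. AFP, the fetal albumin relative used as a serum marker, gave 2.61 with sorafenib, 3.57 with the sorafenib probe and 10.2 with DMSO, and GPC3, H19 and IGF2 gave −7.16, 1.21 and 5.25 with DMSO. None was above background on any array. The bright members were AKR1B10 and, by 1 of its 2 probes, NQO1, followed by SPP1 (osteopontin) at 660, the RNA-binding protein gene IGF2BP3 at 436, GOLM1 at 167 and PEG10 at 148. Cholangiocyte and progenitor genes were above background in 9 of 13 (69.2%, median 62.7), with the surface protein CD24 at 3279 and KRT7 at 2668 in front and the duct factor SOX9 at 56.2.

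**Figure D3:**
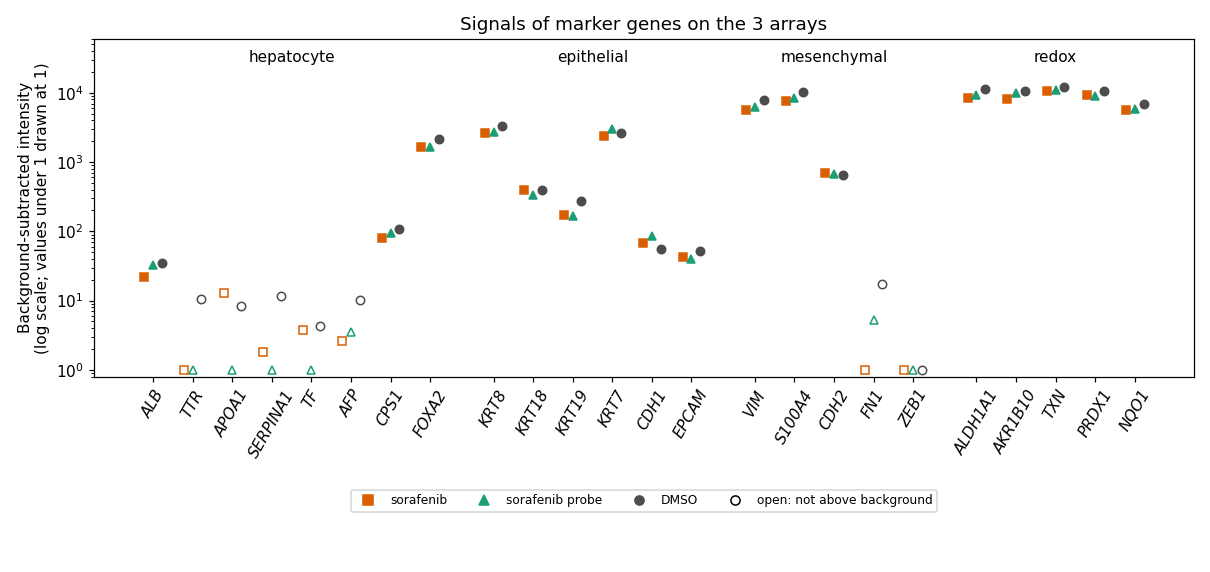
Background-subtracted intensity (y axis, log scale, values under 1 drawn at 1) of 24 genes (x axis) with sorafenib (squares), the sorafenib probe (triangles) and DMSO (circles), 1 array each, with open symbols for values not above background. ALB lies between 22.1 and 35.1 and TTR, APOA1, SERPINA1, TF and AFP are open on every array, whereas KRT8, VIM and the redox genes lie above 2000 throughout.

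The promoters of the hepatocyte lists are shown for contrast with those of the bright redox genes. The letters GTTAAT, part of an element known from liver gene promoters, stood in 6 of 32 promoters of hepatocyte secreted proteins (18.8%) and in 6.89% of all promoters, and TATAAA stood in 10 of 17 promoters of hepatocyte enzymes (58.8%) and in 12% of all, both searched on either strand. The other pairings were closer to the share of all promoters, with TATAAA in 3 promoters of secreted proteins (9.38%) and GTTAAT in 2 of enzymes (11.8%). In ALB (chr4:73404037-73404336, plus strand) GTTAAT begins 61 bases before the start on the gene's strand, and in FGB (chr4:154562730-154563029, plus strand), a fibrinogen chain gene, it begins 51 bases before it on the other. FGB, chosen for its match, had 8.67 with sorafenib, 13.2 with the sorafenib probe and 6.58 with DMSO and was not above background. Capitals mark the match.
ALB: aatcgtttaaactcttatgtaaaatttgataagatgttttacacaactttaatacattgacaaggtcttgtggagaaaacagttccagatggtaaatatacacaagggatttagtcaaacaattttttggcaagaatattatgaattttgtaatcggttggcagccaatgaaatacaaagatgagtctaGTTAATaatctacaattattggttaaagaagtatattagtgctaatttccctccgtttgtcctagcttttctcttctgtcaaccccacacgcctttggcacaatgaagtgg
FGB: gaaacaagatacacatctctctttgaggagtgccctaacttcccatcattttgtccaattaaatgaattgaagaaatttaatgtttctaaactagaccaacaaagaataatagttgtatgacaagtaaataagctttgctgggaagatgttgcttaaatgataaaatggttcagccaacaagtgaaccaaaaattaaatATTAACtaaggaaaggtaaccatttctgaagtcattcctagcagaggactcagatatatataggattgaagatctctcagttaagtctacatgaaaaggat

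Most genes of the list of simple epithelial keratins and plakins were above background. Of 11 measured genes 8 were (72.7%, median 214), each on all 3 arrays, against 47.1% of all measured genes with DMSO. This list counts plakins together with keratins, so its share is not that of keratins alone. KRT8, which pairs with KRT18 in all simple epithelia, gave 2590 with sorafenib, 2739 with the sorafenib probe and 3272 with DMSO, and KRT18 gave 397, 337 and 390. KRT7 and KRT19, which in liver mark bile ducts rather than hepatocytes, had 2363, 2980 and 2668 for the first of them and 174, 167 and 273 for the other. KRT80 and the linker protein gene PLEC had DMSO signals of 1383 and 214. Epithelial junction and polarity genes were above background in 21 of 40 (52.5%, median 21.8), a share close to that of all genes. SPINT2, a membrane protease inhibitor, led at 3454, with the catenin CTNNA1 at 2104, the tight junction genes TJP1 and CLDN1 at 832 and 830 and the desmosomal cadherin DSG2 at 783. CDH1, the E-cadherin gene, had 68.9 with sorafenib, 85.5 with the sorafenib probe and 56.5 with DMSO, and EPCAM had 42.4, 39.8 and 51.4. Occludin (OCLN) was among the 18 genes of this list that were above background on none of the 3 arrays. So were ESRP1, ESRP2, GRHL2, OVOL1, OVOL2, ST14, SPINT1, CLDN4 and CLDN7, chosen after their values were seen. ELF3 and CLDN3, chosen in the same way, were above background on all 3. Of 14 genes of stratified epithelium 3 were above background, KRT10 at 1290, SFN at 308 and DSC3 at 25.1, and KRT5 and KRT14 were not.

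Mesenchymal and transition genes were above background in 8 of 25 (32%, median 11.8), against 47.1% of all measured genes. The brightest of them, however, stood near the top of the profile. VIM, the intermediate filament protein of mesenchymal and many cultured cells, gave 5663 with sorafenib, 6154 with the sorafenib probe and 7812 with DMSO, with 4926 by its other probe. S100A4, a calcium-binding protein of motile cells, gave 7580, 8462 and 10160. The N-cadherin gene CDH2 had 706, 664 and 658. ACTA2, TAGLN and TWIST2 had DMSO signals of 285, 113 and 60.6, whereas FN1 (17.1) and ZEB1 (−9.66), a fibronectin gene and a repressor of E-cadherin, were not above background.

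Markers of other lineages were mostly below the limit. Over 13 lists of other tissues 20 of 168 measured genes were above background (11.9%), against 47.1% of all measured genes. The hepatocyte secreted proteins had 16.7% and the hepatocyte enzymes and transporters 8.33%. Of the 13 lists 4 had no gene above background, those of erythroid cells and megakaryocytes, pancreas and stomach, lung and thyroid, and breast and prostate. At a detection limit of 0.05 the first 3 of these lists had 2, 3 and 1 genes above background and the last still had 0. No endothelial gene but EGFL7 (22.9) was above background with DMSO, and PECAM1, CDH5 and VWF were not on any array. Among lymphoid and myeloid genes CD68, a lysosomal protein also found outside macrophages, had 650, CD14 111, HLA-DRA 34.3 and ITGAM 22.7, while PTPRC, the pan-leukocyte gene, and CD3E were not above background. The neuronal list held the tubulin gene TUBB3 at 1742, MBP at 526, ENO2 at 202, SNAP25 at 104 and INSM1 at 26.5. The intestinal genes CDH17 (28.96) and MUC13 (27.7), UPK1B (30.5), NPPA (38.3), NKX2-5 (28.8), MITF (34.02) and SALL4 (21.2) had signals under 40, DNMT3B, a DNA methyltransferase, had 66.0, and the cancer-testis genes PRAME and MAGEA6 had 163 and 86.3.

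Most measured genes of central carbon metabolism were above background, against 47.1% of all measured genes. Of 22 glycolysis genes 20 were above background (90.9%, median 1071), led by lactate dehydrogenase LDHA at 8251 with sorafenib, 8439 with the sorafenib probe and 9715 with DMSO. GAPDH and ENO1 had DMSO signals of 9476 and 9299, and the platelet phosphofructokinase PFKP had 3319. HK2, the inducible hexokinase of many tumours, had 30.8, and the liver forms PKLR and SLC2A2, chosen after their values were seen, were not above background. Of the gluconeogenesis and glycogen list 9 of 15 were above background (60%), with UGP2 and PGM1 of glycogen synthesis at 1036 and 878, and without the gluconeogenic enzymes G6PC1, PCK1 and FBP1. All 8 genes of the pentose phosphate pathway and NADPH supply were above background (median 774), with TKT, TALDO1 and PGD at 4053, 3763 and 3334. All 18 citric acid cycle genes (median 352) and all 42 respiratory chain and ATP synthase genes (median 2081) were as well, headed by MDH2 at 5673 and by ATP5F1B, the catalytic subunit of ATP synthase, at 9418.

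Genes of lipid synthesis were mostly above background, against 47.1% of all measured genes. Fatty acid synthesis genes were above background in 13 of 15 (86.7%, median 183), with ACLY, FASN and the desaturase SCD at 2642, 1940 and 1668 with DMSO. SCD had 816 with sorafenib and 829 with the sorafenib probe. Cholesterol genes were above background in 17 of 19 (89.5%, median 176), with HMGCS1 at 626 with sorafenib, 669 with the sorafenib probe and 1328 with DMSO, and SQLE at 430, 441 and 863. Of 20 genes of fatty acid oxidation and ketogenesis 15 were above background (75%, median 238). ETFA, ACADVL and ETFB were the brightest at 2202, 1544 and 1198, whereas CPT1A, the carnitine transferase that admits fatty acids to mitochondria, had 22.7.

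Lists of bile acid, urea, amino acid and drug metabolism had shares on either side of the 47.1% of all measured genes. Bile acid genes were above background in 9 of 19 (47.4%, median 10.5), a share close to that of all genes. AKR1D1, the steroid reductase of bile acid synthesis, had 6376 by 1 of its probes and 11.2 by the other, and the export pumps ABCC3 and ABCC2 had 2053 and 793. CYP7A1, the rate-limiting enzyme, the uptake carrier SLC10A1 and the canalicular pump ABCB11 were not above background on any array. Of 9 urea cycle genes 4 were above background (44.4%), SLC25A13 at 397, SLC25A15 at 315, ASS1 at 171 and CPS1 at 108, while OTC and ARG1 were not. Amino acid breakdown genes were above background in 21 of 32 (65.6%, median 102), led by KYNU of tryptophan breakdown at 3838 and GOT2 at 1502, without TAT, HPD and TDO2. Serine and folate genes were above background in 13 of 14, with MAT2A at 3799 and PHGDH, the first enzyme of serine synthesis, at 2459 with sorafenib, 2462 with the sorafenib probe and 1023 with DMSO. Of 38 genes of cytochrome P450 enzymes and conjugation 14 were above background (36.8%, median 7.53). The glutathione transferases GSTP1 and GSTO1 had 5428 and 2362, CYP1B1, an extrahepatic P450 enzyme, had 838, and CYP3A4, CYP2E1 and UGT1A1 were not above background.

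Genes of the machinery that makes secreted proteins were nearly all above background, against 47.1% of all measured genes. All 30 translocon, signal peptidase and glycosylation genes (median 697) and all 33 vesicle coat and Golgi genes (median 481) were above background. TRAM1, which helps chains into the endoplasmic reticulum, had 4346 with sorafenib, 3899 with the sorafenib probe and 6079 with DMSO, and the cargo receptor gene TMED3 had 2528, 2844 and 2612. Endoplasmic reticulum chaperones were above background in 17 of 21 (81%, median 203), with HSP90B1 at 2269, the disulfide isomerase P4HB at 1954 and HSPA5, the central chaperone of this compartment, at 203.

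Of secreted products, those of many cell types were seen and those of hepatocytes were rare. Over all measured genes 47.1% were above background. Apolipoproteins and lipid carriers had the lowest share of the secretory lists, with 3 of 28 above background (10.7%, median 4.64), namely FABP5 at 844, APOC1 at 554 and APOH at 39.4. Complement had 6 of 26 (23.1%), namely CFD at 351, the surface regulators CD59 at 174 and CD55 at 57.2, C1S at 114, C5 at 108 and CFB at 31.2, and C3 was not above background. Coagulation and fibrinolysis had 9 of 27 (33.3%), with SERPINE2, an inhibitor of thrombin and plasminogen activators, at 1879 with sorafenib, 2045 with the sorafenib probe and 3360 with DMSO, and the urokinase gene PLAU at 825, without F2, F9 and PLG. Of 33 protease inhibitors 10 were above background (30.3%), with the cystatin CST3 at 2190 and TIMP1 at 2018.

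Growth factors and their binding proteins were above background in 30 of 46 (65.2%, median 43.5), with MIF, a cytokine-like protein, at 3780, IGFBP4 at 2551 and the Wnt antagonist DKK1 at 2497. VEGFA had 39.9, and TGFB1 and HGF were not above background. Of 25 cytokines and chemokines 11 were above background (44%), a share close to that of all genes. IL18, a cytokine of epithelial and myeloid cells, had 5113 with sorafenib, 5130 with the sorafenib probe and 6254 with DMSO, and the chemokine gene CCL2 had 414, 500 and 977. CXCL8 had 460, 419 and 457, and IL6 and TNF were not above background. Matrix and protease genes were above background in 27 of 38 (71.1%, median 161), with cathepsin L (CTSL) at 3739, the laminin chains LAMA5 and LAMC1 at 3421 and 1904 and galectin LGALS1 at 3285.

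**Figure D4:**
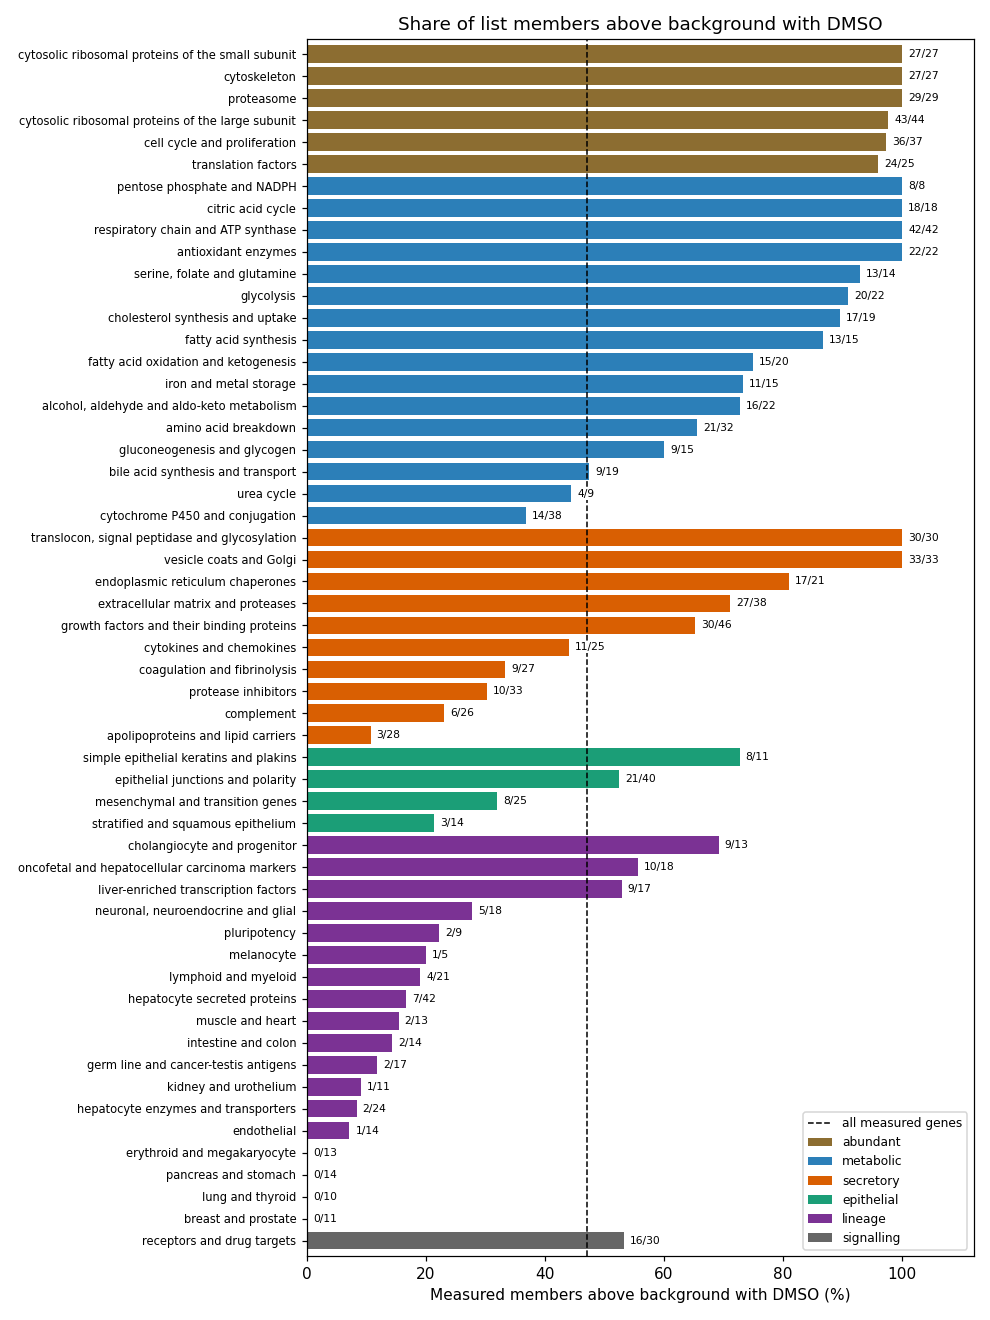
Share of the measured genes of each list that were above background with DMSO (x axis, percent) for 55 lists grouped by category, with the count of genes beside each bar. The dashed line marks 47.1%, the share over all measured genes, and the hepatocyte lists at 16.7% and 8.33% and the apolipoproteins at 10.7% lie well to its left.

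Genes of proliferation were above background in 36 of 37 (97.3%, median 833), against 47.1% of all measured genes. MCM7 of the replicative helicase had 3219 with sorafenib, 3224 with the sorafenib probe and 3770 with DMSO. CCND1, the cyclin of G1 phase, had 2553, 2519 and 3138, and TOP2A had 1824, 1878 and 1982, whereas MKI67 had 53.1, 60.2 and 72.3 by its single probe. CDKN2A, an inhibitor of the cyclin D kinases, was the gene of this list not above background, at −0.50 with sorafenib, 0.95 with the sorafenib probe and 3.72 with DMSO as the brightest of 3 probes. Its neighbours on the chromosome were looked up after this was seen. CDKN2B, MTAP and DMRTA1 were not above background on any array (6.27, 15.1 and 6.06 with DMSO), and KLHL9 had 189, 208 and 257. DNA copy number was not measured.

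Of the receptors and kinases that include the targets of sorafenib 16 of 30 were above background (53.3%, median 50.4), near the share of all genes. The receptor tyrosine kinase AXL had 1816 with sorafenib, 1757 with the sorafenib probe and 1791 with DMSO, MET had 356, 373 and 555, and EGFR had 145, 146 and 177. The RAF kinase ARAF had 380 with DMSO, and MAP2K1 and MAP2K2, the kinases below RAF, had 726 and 273. KDR and PDGFRB, receptors that sorafenib inhibits, gave 5.34 and −0.27 with sorafenib, −0.31 and −9.19 with the sorafenib probe, and 4.87 and −15.2 with DMSO, and were not above background. The study examined their proteins, VEGFR2 and PDGFR-β, in this line by Western blot and reported phosphorylation that fell with dose of either compound. It reported no significant change in the total amount of either protein. Array signals measure RNA and not protein.

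Genes above background had promoters richer in CpG, a comparison chosen after the values were seen. A promoter was matched for 15033 of the measured genes, of which 51.4% were above background. The ratio of observed to expected CpG, which is low in most of the genome and high in the promoters of widely used genes, was 0.6 or more in 9952 genes, of which 66.4% were above background, and under 0.6 in 5081, of which 22% were. By steps of this ratio the share was 13.7%, 20.8%, 35.3%, 57.5%, 69.6% and 73.6%. The median ratio was 0.85 in the 100 brightest genes, 0.25 in the hepatocyte secreted proteins and 0.22 in the hepatocyte enzymes. Because the genes share one array and were chosen on it, this is given as a description.

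**Figure D5:**
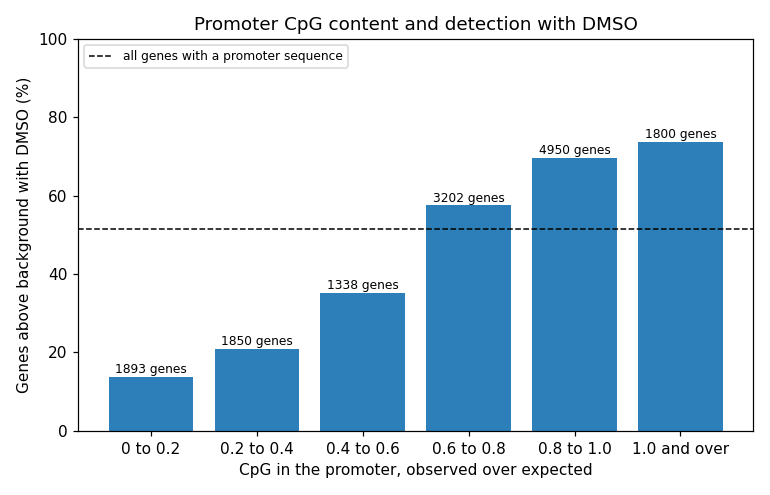
Share of genes above background with DMSO (y axis, percent) by the ratio of observed to expected CpG in the promoter (x axis), for 15033 genes with a promoter sequence. Bars rise from 13.7% at a ratio under 0.2 to 73.6% at 1.0 and over, and the dashed line marks the 51.4% of these genes that were above background.

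The profile seen with DMSO was for the most part seen on the arrays of the compounds, which the choice of genes did not use. By the same array probe, 8914 of the 9448 genes (94.3%) were above background with sorafenib and 8921 (94.4%) with the sorafenib probe. All of the first 6000 ranks were, and of the genes ranked lower 84.5% were with sorafenib and 84.7% with the sorafenib probe. Ranked within these 9448 genes by the same array probe, 93 of the 100 brightest with DMSO were among the 100 brightest with sorafenib. With the sorafenib probe 92 were. Genes outside the 9448 were not ranked. Across the 9448 genes, which are not independent replicates and share array probes, Spearman's correlation with the DMSO signals was 0.983 for either compound.

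The number of genes of the DMSO profile that differed by 2-fold depended strongly on the scaling. On normalized log2 values, 17 (0.18%) were at least 2-fold higher with sorafenib than with DMSO and 33 (0.349%) at least 2-fold lower. Over all 10396 genes above background on any array these shares were 0.298% and 0.317%. The sorafenib probe gave 21 higher (0.222%) and 31 lower (0.328%), against 0.462% and 0.298% of all 10396 genes. A gene chosen for being above background with DMSO is more easily lower elsewhere, and among genes above background on all 3 arrays only 9 were lower by this much with sorafenib, and 14 were with the other compound. In the other deposited table, whose values appear quantile normalized, 50 genes were higher and 334 lower with sorafenib, and 59 and 327 were with its probe. With an offset of 50 the counts were 10 higher and 2 lower for either compound. On normalized values none of the 500 brightest genes differed by 2-fold in either direction with either compound, by a count of sizes with no test. Both compounds share the single DMSO array.

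Within these 500 genes the tRNA ligase gene AARS1 was the highest relative to DMSO, with log2 differences of 0.79 for sorafenib and 0.68 for the sorafenib probe, and signals of 3438, 3327 and 2264 with sorafenib, the sorafenib probe and DMSO. RPS18, RPL36, GARS1, another tRNA ligase, and BOLA3 came next, with log2 differences between 0.37 and 0.46. The secreted protease PRSS23 was the lowest, with −0.79 and −0.74 and signals of 1156, 1252 and 2318 in the same order. SERPINE2 (−0.62 and −0.57), the sterol-responsive gene TMEM97 (−0.56 and −0.59), HNRNPA2B1 (−0.55 and −0.56) and the chaperone HSP90AB1 (−0.45 and −0.54) followed. On these normalized values none was past 2-fold, whereas the PRSS23 signals without normalization differed by just over 2-fold with sorafenib.

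At the lower end the limit cut through nearly equal signals. The genes just inside were THBS2-AS1, C1QL2, H6PD, ZBTB8A and PHYKPL, with DMSO signals of 20.81 to 20.83 and a detection p-value of 0.00909. Just outside lay SARM1, ST3GAL2, EIF2AK3, DUSP4 and H3C2 at 20.80 to 20.77, with a detection p-value of 0.0104. With 770 steps of the detection p-value on each array, a difference of 1 step separated these genes.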

How the data were processed

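Total RNA of PLC-PRF-5 cells was labelled with biotin and hybridised to an Illumina beadchip, 1 array per condition. The authors deposited a table of background-subtracted probe intensities that is not normalized between arrays, used here, and another intensity table that is quantile normalized and set to at least 1 although its name says otherwise. With it they deposited a detection p-value for every probe and array, in 770 steps. No source used here states the scanner software. Symbols came from the platform annotation, updated through Entrez identifiers to RefSeq (99.9% matched). Of the probes, 8 had several symbols and were left out, and 17202 had none. Values below 0, 27.1% with DMSO, were kept.

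A gene took its brightest probe and was above background at a detection p-value under 0.01. For differences, limma's normexp correction with an offset of 16, quantile normalization and log2 were applied (R 4.3.3, limma 3.58.1; tables in Python 3.11.15), which understates differences of dim genes. These steps were tested on simulated data. With 1 array per group no test was made, and the number of arrays limits the precision. Promoters came from RefSeq on GRCh38.p14, with the first listed start of a gene.

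The genes, 55 gene lists (1253 different genes, 1153 measured) and alternatives were chosen with earlier results of these data known. Text names the 30 brightest genes, the first 4 and up to 6 brightest genes of a list, all in lists with 6 or fewer, 5 on either side of the limit, and the 5 highest and 5 lowest of the 500 brightest. Others are marked. The alternatives were detection limits of 0.05 and 0.005, detection on all arrays or by most probes of a gene, RefSeq matches only, mean probes, the mean of the arrays, the other deposited table, an offset of 50 and no normalization.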

Additional observations from a re-analysis of the deposited data

Results flagged for a closer look

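Signal was also found in probes that the profile of named genes does not use. Of the 17202 array probes without a gene symbol, 3212 (18.7%) were above background with DMSO, and 2684 were so on all 3 arrays. The highest gave a DMSO intensity of 11702, and 54 of the 100 brightest probes of the array were of this kind. Their transcripts were not identified here.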

How the results depend on the processing

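The count of 9448 genes above background with DMSO was 10759 at a detection limit of 0.05, 8871 at 0.005, 8779 on all 3 arrays, 8851 where at least 50% of a gene's probes had to pass, and 9446 with RefSeq matches only. Of the 100 brightest genes, 77 were kept with the mean of a gene's probes, 100 with normalized values, 100 in the other deposited table and 95 by the mean over the arrays. Hepatocyte enzymes above background numbered 4 in place of 2 at a limit of 0.05 and 1 where at least 50% of the probes had to pass. Of the 55 lists, 12 moved by more than 1.5 times at 0.05, 2 at 0.005, 5 on all 3 arrays and 3 where at least 50% of the probes had to pass. Counts of 2-fold differences moved most. With an offset of 50 they were 10 higher and 2 lower for either compound. In the other deposited table they were 50 higher and 334 lower with sorafenib, and 59 and 327 with the sorafenib probe. Without normalization they were 11 higher and 76 lower with sorafenib, and 65 lower with the sorafenib probe, and the median log2 difference of the members was then −0.22 and −0.19, against −0.03 for either compound with it. Detection on all arrays left 9 lower genes for sorafenib and 14 for its probe. The cause of these shifts was not tested. Leaving out an array leaves no group, so no such value exists, and signals near 20.8 carry the least certainty.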

Other observations

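Genes outside the lists, chosen after their values were seen, had these signals. UCHL1, a deubiquitinase best known from neurons, had 3501 with sorafenib, 3113 with the sorafenib probe and 3113 with DMSO. PTGR1, a reductase of prostaglandins and reactive alkenals, had 2237, 2324 and 3531. SLC7A11, the cystine importer that feeds glutathione synthesis, had 125, 129 and 99.6. These values belong to no comparison above.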
